A study of Homo sapiens with 40 samples.

Results

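Polysome-bound RNA of BEAS-2B cells carrying a control hairpin was compared between cells given IL-13 and cells left unstimulated, 5 libraries against 5. The 10 libraries were taken by their labels, from 40 libraries in all, and the question was which mRNAs rise or fall on polysomes with the cytokine. BEAS-2B is an immortalised line of human bronchial epithelium. Cells of every group were grown in medium with 10% serum and starved overnight in 2% serum. Those of the treated group then received IL-13 at 100 ng/ml and were harvested after 24 h. The sample names write siC for the control cells, while the protocol in the labels speaks of a constitutive short hairpin line, so control cells here are 1 stable line. The other libraries came from a line with a hairpin against the RNA-binding protein IGF2BP3, labelled knockdown, and from total RNA, called input. The labels do not say whether the 5 replicates are separate cultures, so the spread between libraries may be technical. The p-values rest on a spread estimated over all 40 libraries, and not on the 10 compared alone. RNA was poly(A)-selected.

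IL-13 is a type 2 cytokine of allergic airway inflammation. It binds IL13RA1, which pairs with IL4R, and the JAK kinases on these chains phosphorylate STAT6. STAT6 dimers enter the nucleus and bind DNA elements with an inverted TTC repeat, which raises transcription of chemokines that attract eosinophils and of inhibitors that damp the signal. Frac-seq separates RNA on a sucrose gradient by the number of ribosomes it carries, so an mRNA can be higher in the polysome fraction because there is more of it or because more of it is bound. Values are given as CPM, counts scaled to library size with TMM factors, each with 5 libraries a group in the order of replicates 1 to 5. In bulk RNA, fewer cells with an mRNA and less of it per cell cannot be told apart.

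The 10 libraries held between 9173872 and 34082191 estimated counts. Keratins of simple epithelium were high, with KRT18 at a median of 662 TPM in unstimulated and 735 TPM in IL-13 libraries and KRT8 at 267 and 322 TPM. KRT7 was at 217 and 126 TPM, a log2 fold change of -0.65 (unadjusted p = 0.028, edgeR adjusted p = 0.844). KRT19 was less abundant, at 24.0 and 40.9 TPM. VIM, a mesenchymal filament gene, stood at medians of 457 and 423 TPM. The other fibroblast and mesenchymal markers were lower. COL1A1 was at medians of 19.6 and 18.9 TPM, PDGFRB at 8.74 and 8.70 TPM and COL1A2 at 0.573 and 0.828 TPM. DCN was listed at 0 in all 10. The epithelial adhesion genes EPCAM and CDH1 were near 0, with at most 1.54 TPM and 0.346 TPM in any of the 10. Of the airway basal markers, KRT17 was high, at medians of 329 and 258 TPM, while KRT5 was listed at 0 in all 10 and KRT14 and TP63 were at no more than 0.167 TPM. The 4 secretory markers summed to at most 0.0171 TPM in any library. Of the leukocyte markers, PTPRC and CD3E were listed at 0 in all 10, and CD68, a lysosomal protein, had medians of 15.5 and 9.81 TPM. IGF2BP3, the targeted gene, was at 11.2 ± 6.84 CPM (SD, n = 5) in unstimulated and 10.6 ± 3.62 CPM in IL-13 polysome libraries of control cells, and at 11.2 ± 8.60 and 9.15 ± 4.79 CPM in those labelled knockdown. In input it was at 35.2 ± 11.3 and 35.4 ± 6.72 CPM in control cells and at 24.9 ± 3.02 and 25.8 ± 6.29 CPM in cells labelled knockdown, with ranges that overlapped.

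IL-13 raised 16 mRNAs on polysomes and lowered 5, out of 16735 genes tested. This is 0.0956% and 0.0299% of all genes, and 0.125% in either direction (edgeR quasi-likelihood test, Benjamini-Hochberg adjusted p under 0.05). At an unadjusted p under 0.05, 388 genes were higher (2.32%) and 472 lower (2.82%), 5.14% of all. The median log2 fold change over all genes was -0.0026. The 15 risers described here were CISH, HSD3B1, CCL26, SOCS1, PPFIBP2, SPINT2, NPPB, MSX1, NABP1, PPP1R14A, ARHGAP44, LIMA1, SPATA33, TNFSF13 and RFLNA. Their calls differ in strength: of the 21 calls, 11 were kept whichever of the 10 libraries was left out, 8 of them higher with IL-13. With the 20 polysome libraries fitted alone, 9 calls remained, all higher, and with the 10 libraries alone 3 remained.

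The 4 stretches of DNA below lie upstream of risers and are shown because they hold STAT-type elements, written 5′ to 3′ on the strand of the gene, from RefSeq promoter windows of build GRCh38.p14 that run from 250 bases before to 50 after a start site. Capitals mark TTCNNNGAA, bound by many STATs, or the same TTC and GAA with 4 bases between them, the wider spacing that STAT6 is known for. Both motifs read the same on either strand as written, and overlapping matches were counted.
CISH, chr3:50611863-50612024, minus strand: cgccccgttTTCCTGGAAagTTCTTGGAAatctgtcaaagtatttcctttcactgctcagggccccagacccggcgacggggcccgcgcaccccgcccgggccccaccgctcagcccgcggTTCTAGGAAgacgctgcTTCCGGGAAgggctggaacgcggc
HSD3B1, chr1:119507036-119507075, plus strand: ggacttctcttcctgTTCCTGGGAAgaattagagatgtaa
PPFIBP2, chr11:7577760-7577865, plus strand: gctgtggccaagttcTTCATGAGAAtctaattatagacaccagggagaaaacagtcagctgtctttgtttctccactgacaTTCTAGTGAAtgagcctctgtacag
LIMA1, chr12:50283710-50283748, minus strand: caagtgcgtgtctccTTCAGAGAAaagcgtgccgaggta
The CISH window holds 4 matches of TTCNNNGAA, the first starting 241 bases and the last ending 104 bases before the start site. Windows with 4 or more such matches are 7 of 35116, or 0.0199%. PPFIBP2 has further start sites in the table, and the 2 matches shown lie before 1 of them. Of the 11 risers with a window, 3 hold TTCNNNGAA and 2 hold the wider motif, where 8.25% and 6.45% of the 11523 tested genes with a window hold them in at least 1. For PPFIBP2, which has several windows, the matches of TTCNNNGAA lie in windows that are not shown. Of all single windows, 7.66% and 6.44% hold the motifs. None of the 4 fallers with a window holds either. A match is a string of letters and not a measured binding site.

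Of the feedback inhibitors of cytokine signalling, 2 rose, CISH and SOCS1. CISH (ENSG00000114737), a member of the SOCS family that damps JAK-STAT signals, stood at 2.40, 5.37, 2.94, 5.05 and 3.46 CPM in unstimulated libraries. With IL-13 it stood at 51.2, 80.6, 69.6, 46.1 and 51.8 CPM. Every IL-13 library lay far above every unstimulated one, a log2 fold change of 3.95 ± 0.25 (SE; 15.5-fold, edgeR adjusted p = 8.27e-14), the smallest p of all genes. SOCS1, which binds and inhibits JAK kinases, went from 0.731, 0.273, 0.210, 0.766 and 0.112 CPM to 2.71, 7.27, 3.21, 3.29 and 6.52 CPM. The groups did not overlap, and the log2 fold change was 3.40 ± 0.44 (edgeR adjusted p = 8.84e-06). On the deposited TPM scale, which allows levels of different genes to be compared, CISH with IL-13 was at 32.5 ± 5.26 TPM (SD, n = 5) and SOCS1 at a mean of 4.35 TPM. Of 22 feedback genes tested, only these 2 were called in the edgeR fit, and 20 were not, where 0.125% of all genes were called. The median log2 fold change of the list was -0.07, with 16 negative, and 0.03 without the libraries of unstimulated replicate 1. Over all 16735 genes, 8430 were negative. SOCS3, another member of the family, was not called, with a log2 fold change of 0.14. PTPN1, a phosphatase of JAK kinases, stood at -0.04. Both were looked up after the values were seen.

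CCL26, or eotaxin-3, is the chemokine by which airway epithelium draws eosinophils. It was at 0, 0.0909, 0, 0 and 0.557 CPM without the cytokine and at 11.7, 7.53, 5.71, 5.71 and 3.80 CPM with it. The groups did not overlap, and the log2 fold change was 6.10 ± 0.75 (edgeR adjusted p = 3.89e-06). NPPB encodes the precursor of B-type natriuretic peptide. Its unstimulated libraries held 42.7, 45.1, 47.1, 35.9 and 116 CPM and its IL-13 libraries 455, 147, 214, 202 and 160 CPM. All IL-13 libraries were above all unstimulated ones, although replicate 5 of the first group and replicate 1 of the second were well above the rest of their groups. The rise was 4.11-fold (log2 fold change 2.04 ± 0.33, edgeR adjusted p = 4.69e-04). TNFSF13, or APRIL, is a ligand of the TNF family that acts on B cells, and was at 4.91, 9.18, 8.96, 5.09 and 12.8 CPM against 14.6, 21.8, 13.5, 18.6 and 15.0 CPM. The nearest libraries were close, at 12.8 and 13.5 CPM, and the log2 fold change was 1.03 ± 0.22 (edgeR adjusted p = 0.039). That call was lost in 7 of 10 fits that left out a library, with adjusted p up to 0.169, and TNFSF13 shares sequence with a readthrough transcript of its neighbour TNFSF12. The readthrough entry TNFSF12-TNFSF13, looked up after the values were seen, went the other way. Its log2 fold change was -3.48 (unadjusted p = 0.056, edgeR adjusted p = 0.993). Whether reads of the locus were split differently between these entries was not tested.

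HSD3B1 converts steroid precursors to active hormones, and was all but silent without IL-13. It had 1 estimated count over the 5 unstimulated libraries and 1000 over the 5 with IL-13, which were at 5.09, 8.63, 6.14, 15.5 and 5.00 CPM. The ratio of the pooled levels was 674, with a 95% counting interval of 121 to 26640 (edgeR adjusted p = 1.95e-08). Such intervals, and the floors used below for genes at 0 in a group, account for counting error and nothing else, because the labels name no molecular identifiers by which PCR copies could be removed. MSX1, a homeobox transcription factor, went from 0.313, 0, 0.0524, 0 and 0.223 CPM to 1.73, 13.5, 1.74, 4.74 and 1.41 CPM. The groups did not overlap (log2 fold change 5.51 ± 1.04, edgeR adjusted p = 0.008), and without IL-13 replicate 2, its highest library, the adjusted p was 0.054.

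**Figure D1:**
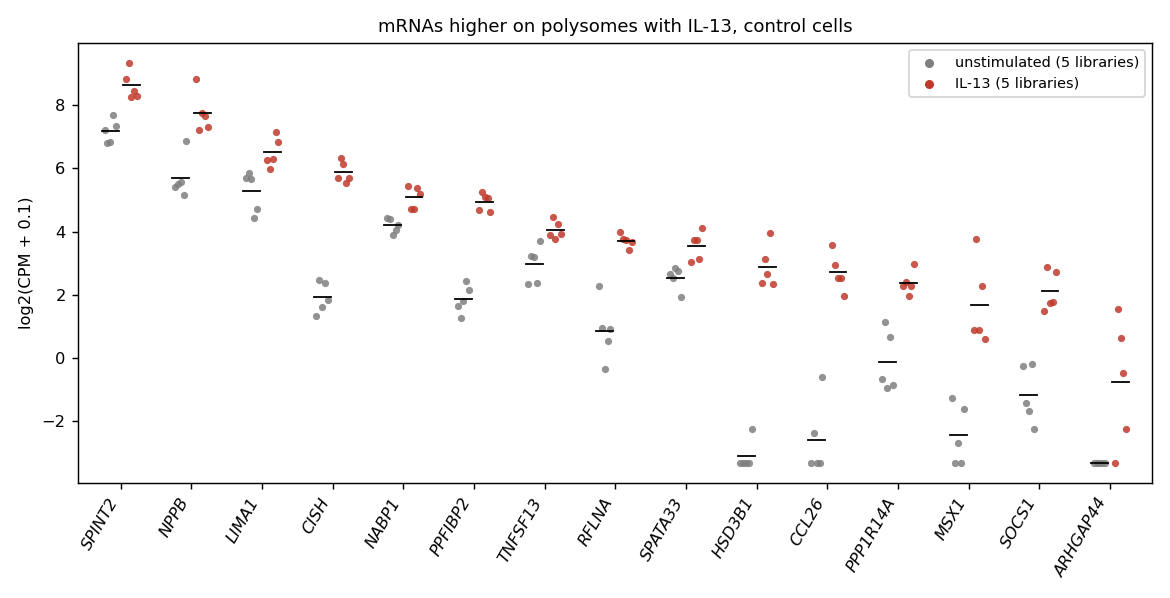
Level of each of the 15 risers described in the 10 polysome libraries of control cells, as log2(CPM + 0.1), ordered by mean level with IL-13; grey points are the 5 unstimulated and red points the 5 IL-13 libraries, and black bars are group means of the log values. The groups do not overlap for 14 of the 15, and ARHGAP44 has an IL-13 library at 0.

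Among risers that were already abundant, SPINT2 stood out. It encodes a Kunitz-type inhibitor of cell surface serine proteases and reached 299 ± 77.8 TPM (SD, n = 5) with IL-13 against 104 ± 19.9 TPM without. Its unstimulated libraries held 149, 111, 115, 206 and 162 CPM and its IL-13 libraries 452, 652, 304, 352 and 311 CPM. The lowest treated library was above the highest untreated one, and the rise was 2.79-fold (log2 fold change 1.48 ± 0.22, edgeR adjusted p = 1.72e-04). PPP1R14A, an inhibitor of myosin phosphatase, is the gene next to SPINT2 in the RefSeq order and rose too. It was at 0.522, 2.09, 0.419, 1.49 and 0.446 CPM without and 4.77, 5.20, 3.77, 4.74 and 7.82 CPM with IL-13, with no overlap (log2 fold change 2.38 ± 0.48, edgeR adjusted p = 0.019). Leaving out a library ended that call in 4 of 10 fits, with adjusted p up to 0.079.

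PPFIBP2, or liprin-beta-2, belongs to a family of scaffold proteins at cell contacts. It went from 3.03, 2.27, 3.35, 5.28 and 4.35 CPM to 25.4, 37.6, 34.4, 33.3 and 24.6 CPM. Every library of 1 group was above every library of the other, by 8.44-fold on average (log2 fold change 3.08 ± 0.43, edgeR adjusted p = 5.23e-05). LIMA1 (EPLIN), RFLNA (refilin A) and ARHGAP44, a GTPase-activating protein, act on the actin cytoskeleton. RFLNA stood at 4.70, 1.82, 0.682, 1.35 and 1.78 CPM against 15.7, 13.6, 13.2, 10.6 and 12.5 CPM. That is a log2 fold change of 2.70 ± 0.59 with no overlap (edgeR adjusted p = 0.041), lost in 9 of 10 fits that left out a library, with adjusted p up to 0.126, and kept without unstimulated replicate 1, its highest unstimulated library. ARHGAP44 had no count in the unstimulated libraries and stood at 0, 2.82, 1.44, 0.618 and 0.109 CPM with IL-13. Against a floor of 3 counts over the unstimulated group it was at least 29-fold higher (edgeR adjusted p = 0.024), and its call was lost in 6 of 10 fits that left out a library, with adjusted p up to 0.085.

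LIMA1 stood at 51.5, 57.6, 50.9, 21.6 and 26.2 CPM without and 77.7, 63.2, 78.7, 141 and 114 CPM with IL-13. The groups were apart by a narrow margin, 57.6 against 63.2 CPM, and each group fell into a lower and a higher set (log2 fold change 1.19 ± 0.25, edgeR adjusted p = 0.026). Leaving out IL-13 replicate 4 or 5 or unstimulated replicate 4 or 5 ended the call, with adjusted p of 0.177, 0.086, 0.106 and 0.10. NABP1, a single-stranded DNA-binding protein of the DNA damage response, rose from 21.4, 21.1, 14.6, 16.4 and 18.3 CPM to 43.1, 26.0, 26.3, 41.4 and 36.1 CPM. Its groups did not overlap (log2 fold change 0.91 ± 0.18, edgeR adjusted p = 0.009), and without IL-13 replicate 4 or unstimulated replicate 3 the adjusted p was 0.052 and 0.054. SPATA33 stood at 6.26, 5.64, 7.13, 6.58 and 3.68 CPM against 8.02, 13.2, 13.2, 8.71 and 17.3 CPM. It rose 2.05-fold with no overlap (log2 fold change 1.04 ± 0.22, edgeR adjusted p = 0.037), and 7 of 10 fits that left out a library lost the call, with adjusted p up to 0.190.

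The balance of long and short mRNAs differed among the 10 libraries in a way the treatment did not follow. For each library, the median log2 deviation of the shortest 25% of genes was subtracted from that of the longest 25%, over genes with a mean of at least 10 CPM and with lengths taken from the deposited counts and TPM. Unstimulated libraries gave 0.483, 0.219, 0.271, -0.532 and -0.419, and IL-13 libraries gave -0.216, -0.475, -0.0123, 0.350 and 0.176. Each group thus held libraries tilted to long and to short mRNAs, and the ranges overlapped. Within both groups LIMA1 was lower in the libraries tilted to short mRNAs and higher in the others. With the same measure, taken over the 20 polysome libraries, as a term in the fit, an alternative chosen after seeing the data, all 21 calls were kept and 23 genes were called. LIMA1 then had a log2 fold change of 1.29 (edgeR adjusted p = 7.76e-05). The additional calls were NTRK3, a receptor tyrosine kinase, with a log2 fold change of 2.16 (adjusted p = 0.045), and the gene ENSG00000230074 with -2.03 (adjusted p = 0.026). Without the term their adjusted p was 0.094 and 0.229, and both are named after their values were seen.

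**Figure D2:**
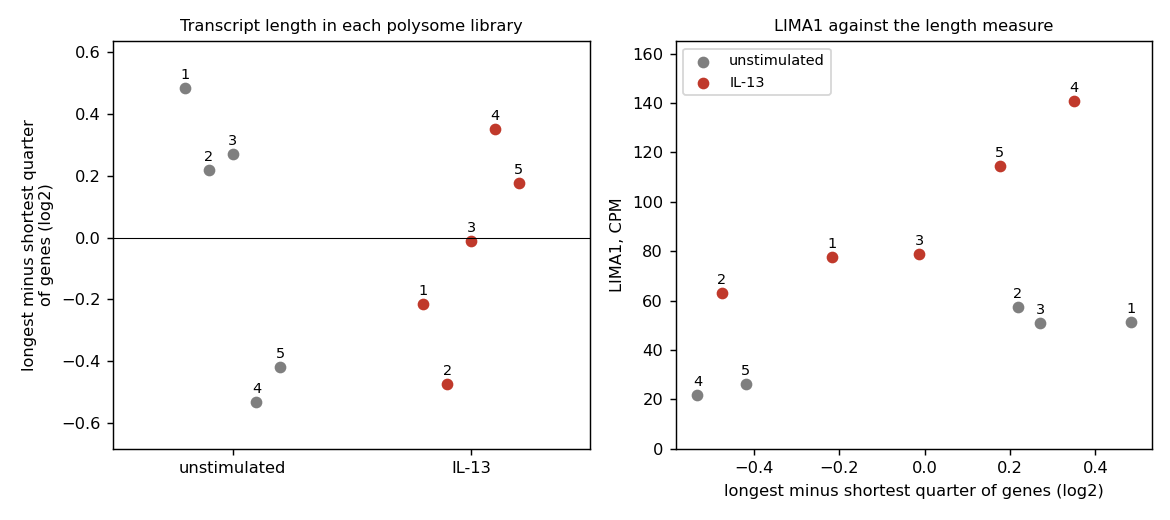
Left, the difference between the longest and the shortest 25% of genes (median log2 deviation) in each of the 10 polysome libraries of control cells, with replicate numbers beside the points; right, the LIMA1 level in CPM against that measure. Unstimulated libraries (grey) span -0.532 to 0.483 and IL-13 libraries (red) span -0.475 to 0.350, and at a like tilt the red points lie above the grey ones.

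Of the 5 fallers, 4 were at no more than 3.34 CPM in any of the 10 libraries, and the fifth was the unnamed gene ENSG00000254692. TNS1 encodes tensin 1, which ties integrins at focal adhesions to actin. It was at 3.34, 3.18, 1.73, 0 and 1.56 CPM in unstimulated libraries and had no count in any IL-13 library. Replicate 4 of the unstimulated group was at 0 too, so the groups touched, and the pooled level was at least 56.4-fold lower with IL-13 against the floor (edgeR adjusted p = 3.75e-04). TUBA8, an alpha-tubulin, fell from 2.40, 1.64, 2.36, 0.180 and 1.00 CPM to 0, 0, 0, 0.0882 and 0 CPM. The IL-13 group held 3 counts and the other 99, a ratio of 49.0 with a 95% counting interval of 16.3 to 242 (edgeR adjusted p = 0.003), and the groups did not overlap. Other alpha-tubulin genes are similar in sequence, and the estimation may have split reads among them.

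TBC1D32, which acts at the primary cilium, was at 0, 3.00, 0.524, 0.496 and 0.223 CPM without and at 0 in every library with IL-13. Most of its counts came from replicate 2, and it was at least 27.7-fold lower (edgeR adjusted p = 0.005). NFXL1, a zinc finger protein, was at 0.209, 0.909, 0.839, 0 and 1.00 CPM against 0 in all IL-13 libraries, at least 18.3-fold lower with 37 counts in all (edgeR adjusted p = 0.031). Its call was lost in 8 of 10 fits that left out a library, with adjusted p up to 0.130. ENSG00000254692, an unnamed gene that GENCODE lists as protein-coding and as overlapping another locus, stood at 22.9, 26.1, 0.891, 34.2 and 0 CPM against 0 in all IL-13 libraries. It was at least 634-fold lower against the floor (edgeR adjusted p = 0.019), and the call was lost without IL-13 replicate 2, 3, 4 or 5, with adjusted p of 0.066, 0.081, 0.079 and 0.054. Reads could be shared with the overlapping gene. ENSG00000254692 also varied widely within other groups. On polysomes of cells labelled knockdown it ranged from 0 to 36.0 CPM without and 0 to 40.6 CPM with IL-13. In input of control cells it ranged from 1.59 to 35.2 and from 1.99 to 8.73 CPM. With the 20 polysome libraries fitted alone TBC1D32 did not pass the filter and the other 4 were not called. There TNS1 had an adjusted p of 0.060 and TUBA8 of 0.055.

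**Figure D3:**
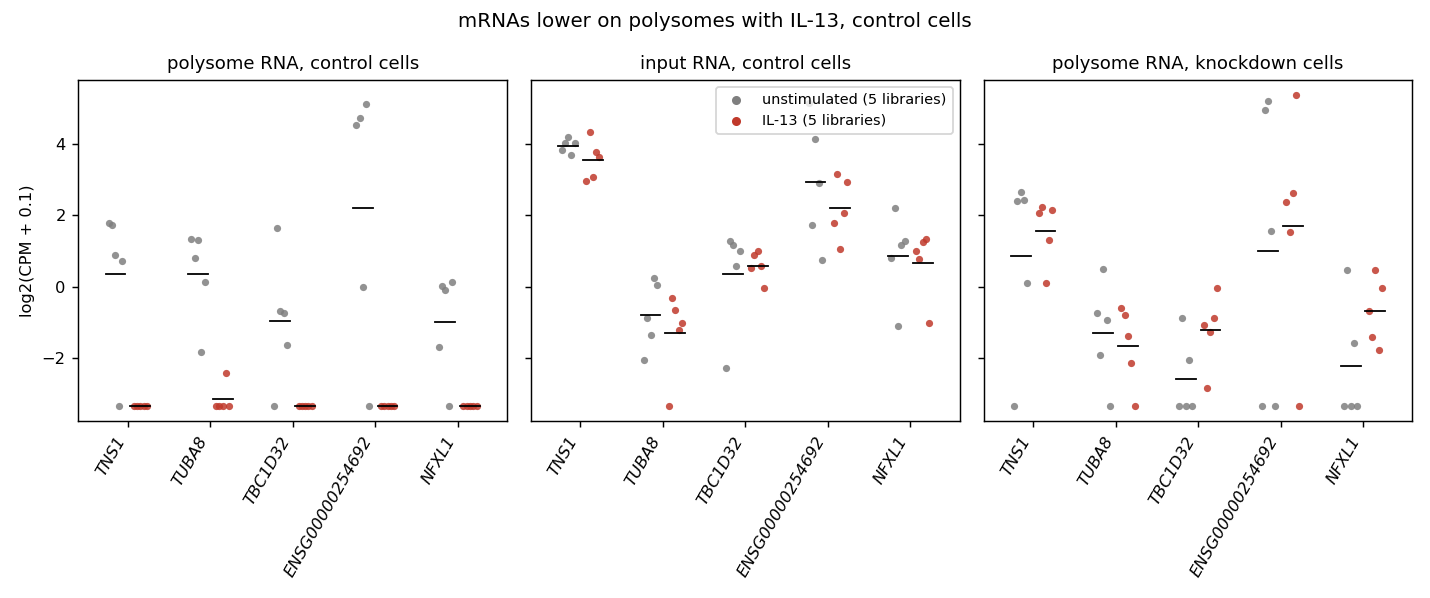
Level of the 5 fallers, as log2(CPM + 0.1), in polysome RNA of control cells (left), input RNA of control cells (middle) and polysome RNA of cells labelled knockdown (right); grey points are unstimulated and red points IL-13 libraries, 5 each, and black bars are group means of the log values. Red points lie at the bottom of the axis, which is 0 CPM, in the left panel, except 1 for TUBA8 at 0.0882 CPM, and are spread over the range of the grey ones in the other panels.

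The same contrast in input RNA of control cells called 13 genes, 0.0777% of all, each of them higher with IL-13. Of the 21 genes called on polysomes, 12 were among them, 57.1% of the 21 and 92.3% of the 13. CISH in input went from 2.07 ± 0.53 to 33.3 ± 7.52 CPM (SD, n = 5). Its log2 fold change there was 4.01, close to that on polysomes. CCL26 went from 0.0884 ± 0.0944 to 12.6 ± 1.91 CPM and SPINT2 from 63.8 ± 17.3 to 182 ± 18.5 CPM. Not called in input were ARHGAP44, PPP1R14A, SPATA33 and TNFSF13 and the 5 fallers. PPP1R14A had a log2 fold change of 2.07 in input (edgeR adjusted p = 0.066). SPATA33 was at 13.0 ± 2.61 and 14.2 ± 1.65 CPM in input, where its log2 fold change was 0.13. TNS1 was at 15.4 ± 2.00 and 12.3 ± 4.93 CPM in input, a log2 fold change of -0.32. On the TPM scale that was 2.475 ± 0.496 and 1.878 ± 0.814 TPM.

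The difference between the polysome effect and the input effect, tested as an interaction, passed for no gene in the edgeR fit, which treats polysome and input libraries as independent. At an unadjusted p under 0.05 there were 326 genes, 1.95% of all, and the Wald test of DESeq2 called 20. The smallest p values belonged to TNS1, TBC1D32, MIRLET7IHG, GUSBP18 and ARHGAP44. For TNS1 the polysome effect minus the input effect was -8.13 ± 1.51 on the log2 scale (SE) (edgeR adjusted p = 0.089), a fitted value that depends on the prior count because a group is at 0. Without unstimulated polysome replicate 4, the library of that group at 0, the adjusted p for TNS1 was 0.0014. SPATA33 and TNFSF13 are thus not shown to differ between fractions: their differences were 0.90 and 0.50. GUSBP18 belongs to a family of near-identical copies, so its counts are uncertain.

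**Figure D4:**
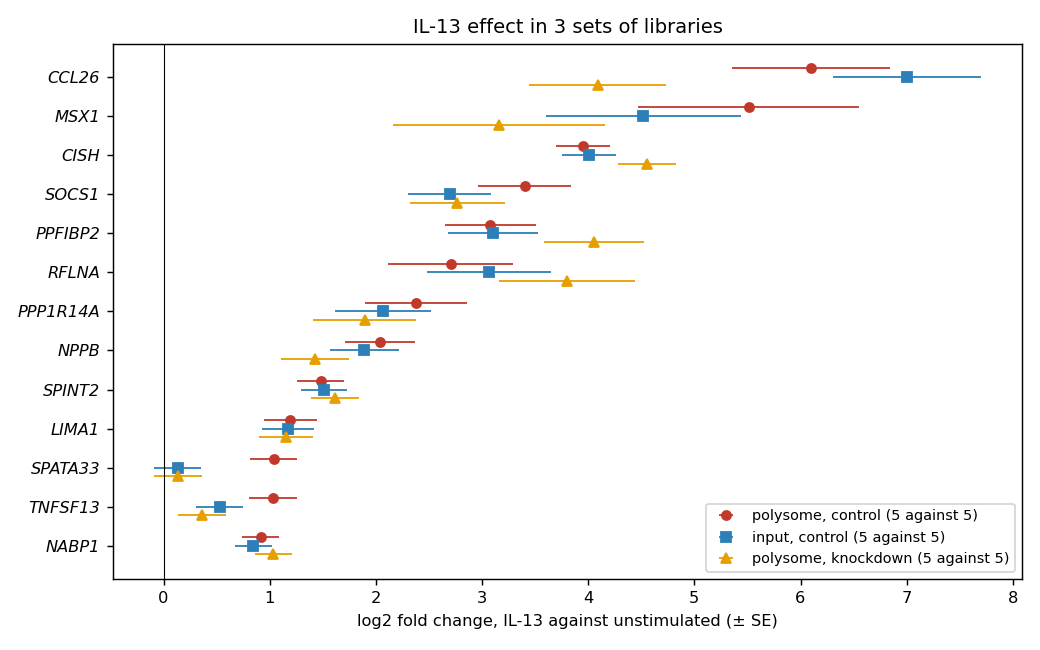
Log2 fold change of IL-13 against unstimulated cells, with its standard error, for the 13 described risers that had more than 3 counts in the unstimulated polysome group; circles are polysome RNA of control cells, squares input RNA of control cells and triangles polysome RNA of cells labelled knockdown, each 5 libraries against 5. For SPATA33 the values are 1.04 on polysomes of control cells, 0.13 in input and 0.14 on polysomes of cells labelled knockdown, while CISH lies between 3.95 and 4.55 in all 3.

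Polysome RNA of cells labelled knockdown shares no library with the main comparison. There, 15 genes were higher with IL-13 and 1 was lower, 0.0896% and 0.00598% of all. Some of these libraries were shallow, with 3980588 and 1816848 estimated counts in unstimulated replicates 1 and 5. IL-13 replicate 5 held 2302952, so low levels in these libraries rest on few counts. Of the 21 genes, 10 were called there too, 47.6% of the 21 and 62.5% of the 16, all in the same direction. Among them were CCL26, CISH, HSD3B1, LIMA1, NABP1, PPFIBP2, RFLNA, SOCS1 and SPINT2, and all 10 were also called in input. All 16 risers had a positive log2 fold change in cells labelled knockdown, and 3 of the 5 fallers a negative one. Over all 16735 genes, 7788 were positive and 8924 negative there, so the count for the fallers is near that share. TNS1 was at 3.51 ± 2.81 and 3.26 ± 1.54 CPM there (SD, n = 5), and TBC1D32 at 0.118 ± 0.195 and 0.409 ± 0.299 CPM. The difference of the IL-13 effect between the lines passed for no gene (edgeR; 563 genes or 3.36% at an unadjusted p under 0.05, 25 by the DESeq2 Wald test). The smallest p values were those of TNS1 and TBC1D32, both with an adjusted p of 0.098, followed by ENSG00000289154, NPIPA3 and ENSG00000287710. NPIPA3 belongs to a family of near-identical copies. Without unstimulated control replicate 4 the adjusted p for TNS1 was 0.0020, and without unstimulated control replicate 1 that for TBC1D32 was 0.040. Without unstimulated knockdown replicate 2, TBC1D32 and NFXL1 both had an adjusted p of 0.030. These were exceptions among 20 edgeR fits that each left out a library. The difference was not called in 19 of them for TNS1, 18 for TBC1D32 and 19 for NFXL1. Adjusted p reached 0.348, 0.395 and 0.526 there. For TNS1 the library left out was the unstimulated one at 0.

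Of 44 genes listed as induced by IL-13 in airway epithelium, 15 passed the filter on low counts in these cells. Of these, 5 were called, among them CISH, HSD3B1, CCL26 and SOCS1, described above, and the other 10 tested were not called. Over all genes tested, 0.125% were called. The list was drawn up with results of these data known. The arachidonate lipoxygenase ALOX15 had no count in any unstimulated library and was at 0, 0.881, 0.901, 0.118 and 0.326 CPM with IL-13 (unadjusted p = 4.03e-04, edgeR adjusted p = 0.187). The serpins SERPINB3 and SERPINB4, near-identical protease inhibitors whose reads can be split between them, were at 0 without IL-13 and at means of 0.20 and 0.43 CPM with it (edgeR adjusted p = 0.311 and 0.258). Several of the 15 were at or near 0 without IL-13 and passed the filter through IL-13 libraries, so no median over the 15 is given. The remaining 29 were too low to test, 17 of them at 0 counts in all 10 libraries. Among the tested genes that were abundant, EGFR had a log2 fold change of -0.02 and CD44 of -0.56. CD44 was at 225 CPM in unstimulated replicate 1 and between 54.6 and 89.5 CPM in the other unstimulated libraries. Without the libraries of that replicate its log2 fold change was -0.08.

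The receptor chains, kinases and STATs themselves were not called, 0 of 13 tested. This is near the share of all genes called, 0.125%. IL4R was at 40.2 ± 19.1 and 29.4 ± 14.7 CPM (SD, n = 5) and IL13RA1 at 41.4 ± 10.2 and 44.0 ± 20.2 CPM. STAT6 was at 63.8 ± 19.5 and 58.7 ± 15.2 CPM, a log2 fold change of -0.12 ± 0.22. On the TPM scale TYK2 was the highest of the kinases, at 38.5 ± 7.92 TPM without IL-13, against 3.18 ± 1.88 TPM for JAK1 and 0.308 ± 0.238 TPM for JAK2. In input the order was closer, with TYK2 at 35.2 ± 3.24 and JAK1 at 26.5 ± 7.24 TPM. JAK3 had an unadjusted p of 0.015 and lay between 0 and 1.94 CPM in all 10 libraries, with IL-13 libraries at 0, 1.94, 1.44, 0.853 and 0 CPM (edgeR adjusted p = 0.702).

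The polysome and input libraries of unstimulated control replicate 1 stood apart from the other 38 libraries in genes of acute stimulation. In its polysome library 61 genes were more than 4-fold above every other polysome library, and in the input library of the same number 62 genes were so; 53 were shared. None of the other 38 libraries had more than 3 such genes. Of the 53, 11 were on the list of NF-kB targets and inflammatory cytokines, 11 on that of immediate early genes, and 3 each on those of ATF4 targets and feedback inhibitors. CXCL1, a neutrophil chemokine, was at 76.4 CPM in it and at most 0.182 CPM in the other 4 unstimulated libraries. TNFAIP3, an NF-kB inhibitor, was at 51.8 against at most 1.21 CPM, and NR4A1, an immediate early nuclear receptor, at 150 against at most 2.91 CPM.

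These lists had lower medians with IL-13, by much less once that replicate was left out. All 15 NF-kB targets tested had a negative log2 fold change, with a median of -2.50, 11 at an unadjusted p under 0.05 and none called. Without the libraries of that replicate, an alternative chosen after seeing the data, the median was -0.26. The 25 immediate early genes had a median of -1.36, and 0.0049 without it, with EGR3 at 54.5 CPM in replicate 1 and at most 0.546 CPM in the other unstimulated libraries. ATF4 targets and amino acid stress genes, such as the amino acid enzymes ASNS and PSAT1, had a median of -0.91 over 21 genes, and -0.26 without it. ASNS was at 197 CPM in that replicate and between 1.18 and 13.6 CPM in the other 4, and PSAT1 at 1400 CPM against 84.4 to 171 CPM. The feedback phosphatases DUSP5 and DUSP6 followed, at 637 and 42.2 CPM against at most 68.3 and 1.83 CPM.

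**Figure D5:**
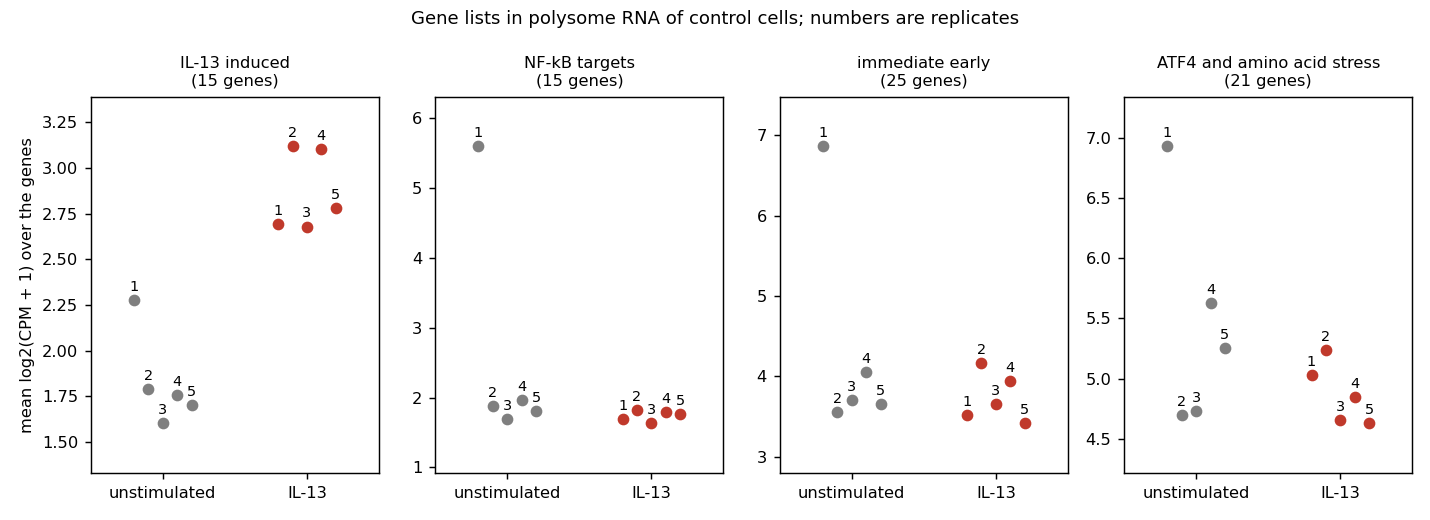
Mean log2(CPM + 1) over the tested genes of 4 lists in each of the 10 polysome libraries of control cells, with replicate numbers beside the points. Unstimulated replicate 1 stands above all other libraries in the NF-kB, immediate early and ATF4 panels, at 5.59, 6.86 and 6.93, and the IL-13 libraries of the IL-13 panel, 2.68 to 3.12, lie above the unstimulated ones, 1.60 to 2.27, in a list where several genes passed the filter through IL-13 libraries.

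Without the libraries of replicate 1, 24 genes were called, of which 17 were among the 21. ARHGAP44, PPP1R14A, SPATA33 and TNFSF13 were no longer called, with adjusted p of 0.060, 0.075, 0.061 and 0.168. Genes called there and not in all libraries, named after their values were seen, were RASD2, RNF19B, PDCD1LG2, ZNF311 and IRAK4, higher, and CEP162 and FNDC1, lower. PDCD1LG2, which encodes the immune checkpoint ligand PD-L2, is on the IL-13 list. It was at 19.2, 4.82, 3.88, 4.87 and 4.01 CPM unstimulated and at 15.9, 11.2, 6.21, 15.3 and 8.15 CPM with IL-13. Unstimulated replicate 1 was the highest of the 10 libraries and the other 4 were below all those with IL-13. The log2 fold change was 0.63 with all libraries (edgeR adjusted p = 1.0) and 1.37 without replicate 1 (edgeR adjusted p = 0.039).

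The broad machinery of the cell differed little in median. Over all 16735 genes, 0.125% were called, and 8265 log2 fold changes were positive and 8430 negative. Lists of this size without a call are near that share. No cytosolic ribosomal protein gene was called out of 79, and the median log2 fold change was -0.07, with 61 negative, and -0.03 without replicate 1. RPL3, the member of smallest p, was at 4206, 2460, 1943, 3716 and 2419 CPM against 2013, 3072, 2181, 2061 and 2288 CPM, and the groups overlapped. None of 39 translation factors was called, with a median of -0.09, and -0.03 without replicate 1. None of 13 mitochondrially encoded mRNAs was called either, with a median of -0.04, and -0.01 without replicate 1. EIF4G3 and EIF2S3, the translation factors of smallest p in each direction, had log2 fold changes of 0.67 and -0.58 (edgeR adjusted p = 0.837 for both). EIF2S3 was at 488 CPM in unstimulated replicate 1 and between 87.6 and 251 CPM in the other 4, and its log2 fold change was -0.05 without that replicate. Cholesterol and fatty acid synthesis genes were positive in 27 of 32 with a median of 0.14, none of them at an unadjusted p under 0.05, and in 21 of 32 with a median of 0.08 without replicate 1. Their mean level was lowest in unstimulated replicate 1, at 6.56 on the log2(CPM + 1) scale against 7.14 or more in the other 9 libraries. Interferon-stimulated genes had a median of -0.15 over 36, and -0.01 without replicate 1, with OAS3 and STAT2 at -1.11 and -0.94 (edgeR adjusted p = 0.270 and 0.568). OAS3 was at 56.3 CPM in unstimulated replicate 1 and at most 26.2 CPM in the other 9 libraries. Extracellular matrix genes had a median of -0.13 over 31, including COL3A1 at -4.09 (edgeR adjusted p = 0.746), which had at most 0.335 CPM in any of the 10 libraries. Cell cycle genes had a median of -0.05 over 34 and nuclear long noncoding RNAs of -0.11 over 6, with none called.

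Genes whose 5 IL-13 libraries all lay above the 5 unstimulated ones were 53, 0.317% of all genes tested, and 21, 0.125%, lay below. With 5 libraries against 5 some genes separate by chance, and how many was not tested. Separation alone is therefore not read as an effect of IL-13. Among the 8082 genes with a mean of at least 10 CPM in both groups, 14 lay above, 0.173%, and 1 lay below, 0.0124%. The largest rises among these, besides SPINT2, NPPB, LIMA1 and NABP1, were those of SFRP1, PLEKHA2, TUB, TEX2, ATP6V0E2 and LITAF. SFRP1, a secreted antagonist of Wnt signals, was at 154, 111, 99.0, 185 and 118 CPM without and 305, 434, 197, 434 and 271 CPM with IL-13. It was 2.46-fold higher by these means of the fit, and its adjusted p was 0.258 (edgeR), so it was not called. Its log2 fold change was 1.30 on polysomes, 1.30 in input and 1.45 on polysomes of cells labelled knockdown, none of them called. TEX2, a lipid transfer protein, stood at 0.60 on polysomes of control cells (edgeR adjusted p = 0.209) and at 0.73 in cells labelled knockdown (edgeR adjusted p = 0.049). LITAF, a membrane protein of late endosomes, was at 198 ± 29.6 and 295 ± 42.9 CPM (SD, n = 5; edgeR adjusted p = 0.353). PLEKHA2, TUB and ATP6V0E2 had log2 fold changes of 0.69, 0.66 and 0.59 and were not called either. XPNPEP1, an aminopeptidase, was the 1 gene below, at 81.5, 68.2, 70.7, 75.0 and 69.3 CPM against 37.2, 67.9, 60.1, 56.9 and 58.5 CPM (edgeR adjusted p = 0.696).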

How the data were processed

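RNA-seq was done on polysome and input RNA of 40 libraries in 8 groups of 5. The deposited table held 62263 genes with an estimated count per library, which carries decimals and follows library size. The deposited TPM, a length- and depth-scaled unit per the file headers, summed to between 82.3% and 85.9% of a full set, so some features behind that scaling are not analysed here. Salmon, Trimmomatic, MultiQC and DESeq2 are named in the submitters' processing notes, with no role or version; build and annotation are not given in the sources used here. Kits that keep strand are named in the labels' protocols, and whether counting used strand is not given in the sources used here. Of the gene IDs, 62246 matched a symbol and 17 did not.

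The design had assumed counts; the estimated counts were rounded. Genes were filtered with filterByExpr on the 8 groups (16735 kept, at least 99.91% of each library's counts), scaled with TMM, and fitted with the quasi-likelihood model of edgeR 4.0.16 in R 4.3.3 over all 40 libraries, 1 mean per group, with 32 residual degrees of freedom and two-sided tests. Standard errors are the log2 fold change divided by the root of the F statistic. Alternatives were DESeq2 size factors, DESeq2 1.42.0 with its Wald test, the replicate number as a block, keeping every gene with 1 count, fewer libraries, and each library left out in turn. Chosen after seeing the data were 38 libraries without unstimulated control replicate 1, the 37 libraries of at least 5000000 counts, and the term for transcript length. The procedure was tested on simulated data. Replicates were compared for copies by chi-square over genes, and the most alike pair gave 36.66 per degree of freedom. Levels of lists are means of log2(CPM + 1).

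Named genes were all those called; receptor chains, JAKs and STAT6; members of the IL-13 lists at an unadjusted p under 0.05; up to 2 members of every other list in each direction at that level; the 5 of smallest p in each difference of effects; the 10 largest rises and falls without overlap at 10 CPM or more; and IGF2BP3. The comparison, rule and lists were chosen with earlier results of these data known, so lists are described by counts and medians only. The lists, 14 in all, hold IL-13 induced genes, receptors and kinases, feedback inhibitors, interferon-stimulated, NF-kB, immediate early, ATF4, ribosomal protein, translation factor, cholesterol, matrix, cell cycle, mitochondrial and nuclear noncoding RNA genes. A few genes that the rule or the lists take in are not reported here, and counts over called genes and lists include them.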

Additional observations from a re-analysis of the deposited data

Results flagged for a closer look

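Among 118 sets of 5 values examined, 27 held a library far from the other 4 of its group by Dixon's criterion. For normally distributed values in genes not chosen from the data, chance gives about 1 in 20, or 5.9. Here many of the genes were named by rules that used these same values, and some sets were at 0 but for 1 library. The 27 can therefore not be weighed against the 5.9. Of the 27, 10 were unstimulated control replicate 1, at 4.70 CPM for RFLNA, 637 for DUSP5, 42.2 for DUSP6, 56.3 for OAS3, 51.8 for TNFAIP3, 76.4 for CXCL1, 150 for NR4A1, 54.5 for EGR3, 197 for ASNS and 1400 for PSAT1. The other 4 unstimulated libraries held at most 1.82 CPM of RFLNA. Among the 15 risers described, RFLNA was the 1 gene for which this replicate stood apart.

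Unstimulated replicate 5 stood apart at 0.112 CPM for HSD3B1, 0.557 for CCL26, 116 for NPPB, 0.446 for JAK3 and 0.112 for ENSG00000289154, which are 1, 5, 1041, 4 and 1 counts. Of these, NPPB alone had more than 5 counts. Unstimulated replicate 2 was at 3.00 CPM for TBC1D32, 33 of the 56 counts of that group. Unstimulated replicate 4 was at 212 CPM for TYK2, against 119 to 140 CPM, and replicate 3 at 0.105 CPM for NPIPA3, which is 2 counts.

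Of the IL-13 libraries, replicate 1 stood apart at 455 CPM for NPPB, against 147 to 214 CPM in the other 4, and at 0.217 CPM for ENSG00000287710, which is 2 counts. Replicate 2 stood apart at 13.5 CPM for MSX1, against 1.41 to 4.74 CPM. It also did so at 60.6 CPM for DUSP5, 3072 CPM for RPL3 and, on the low side, 4.23 CPM for IGF2BP3, where the others were at 11.2 to 12.8 CPM. Replicate 4 was at 0.0882 CPM for TUBA8, 3 counts, and at 133 CPM for PLEKHA2, against 76.1 to 88.2 CPM. Replicate 5 was at 5.21 CPM for JAK2, against 1.36 to 2.18 CPM.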

How the results depend on the processing

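No named gene reversed its direction while called under any alternative, which leaves out genes in fits that did not call them. Without the libraries of unstimulated replicate 1, NR4A1 went from a log2 fold change of -3.58 to 0.06 and CXCL1 from -7.15 to 0.38. For the IL-13 effect on polysomes of control cells (21 genes), DESeq2's Wald test called 61 (35 higher, 26 lower), no filter beyond 1 count 26 (15 higher, 11 lower), the 20 polysome libraries alone 9 and the 10 libraries alone 3, all higher; the last 2 also tested fewer genes. For input (13), the Wald test called 33 and the libraries compared alone 8. For polysomes of cells labelled knockdown (16), these were 36 and 9, the 20 polysome libraries gave 8 and the 37 deeper libraries 10. For the shift from input to polysome (0), the Wald test called 20 and no filter 1, and for the difference between lines (0) these were 25 and 1, with 1 called in 38 libraries. Leaving out each library in turn gave 15 to 23, 8 to 14, 12 to 14, 0 to 1 and 0 to 2 genes, in that order; the cause of these movements was not tested. The 8 calls in input came without unstimulated replicate 3.

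With the replicate number as a block the counts were 20, 12, 14, 0 and 0 over 40 libraries, and 1 for the 10 libraries alone. Same-numbered unstimulated and IL-13 polysome libraries of control cells correlated between -0.662 and 0.292 in their deviations from group means, 0 of 5 best with their own number. Same-numbered polysome and input libraries correlated between 0.0194 and 0.621 in unstimulated cells, 3 of 5 best with their own number, and between -0.487 and 0.159 with IL-13, 1 of 5. The numbers were therefore not taken as pairs, and the fits without the block treat the fractions of a number as independent, although replicate 1 shares 53 outlying genes across them.

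TNFAIP3 and CXCL1 were called as lower with no filter beyond 1 count (adjusted p = 0.016 and 0.030, edgeR). Both were far higher in unstimulated replicate 1 than in the other unstimulated libraries. Without the libraries of that replicate, and with the usual filter, their log2 fold changes were -1.8 and 0.38 and neither was called. Fits of fewer libraries left 11 of 59 named genes untested with the 20 polysome libraries and 20 with the 10 libraries. In the group where they were higher, the 5 fallers held between 37 and 1282 counts.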

Other observations

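The genes beside the 16 risers in RefSeq order, 20 of which were tested, included 3 at an unadjusted p under 0.05 in the same direction and 1 in the other. SPINT2 and PPP1R14A count as neighbours of each other and make up 2 of the 3. The third was MAPKAPK3, a kinase of the p38 pathway whose gene overlaps CISH, with a log2 fold change of 0.61 (unadjusted p = 0.006, edgeR adjusted p = 0.519). Whether counting used strand is not given in the sources used here. ZNF697, next to HSD3B1, was lower by a log2 fold change of -1.18 (unadjusted p = 0.028, edgeR adjusted p = 0.839). These neighbours were chosen after the values were seen.

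TGM2, a transglutaminase on the IL-13 list, was at 16.7, 1.64, 0, 1.31 and 1.23 CPM without and 0.867, 13.3, 3.54, 21.9 and 11.7 CPM with IL-13 on polysomes of control cells. Replicate 1 was the highest of the first group and the lowest of the second. The log2 fold change was 1.37 with all libraries and 3.37 without the libraries of unstimulated replicate 1 (edgeR adjusted p = 1.0 and 0.325), and TGM2 was named after its values were seen.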
